A study of Mus musculus with 16 samples.

Results

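The translation initiation factors (eIFs) and elongation factors (eEFs) of the cytosol were examined in cultured mouse islet cells. Members were all rows of the expression table whose gene symbol starts with Eif1 to Eif6, Eef1 or Eef2, leaving out the kinases that phosphorylate these factors (the Eif2ak genes and Eef2k). The rule found 65 of the 25105 genes in the table, and 62 of them exceeded 1 RPKM (read counts scaled to transcript length and library size) in at least 4 libraries of every comparison and were tested. The remaining 3 were a processed pseudogene, Eif1-ps3 (at most 0.205 RPKM in any library), a long noncoding RNA with an Eif symbol, Eif2c5 (at most 0.0315 RPKM), and the oocyte cap-binding gene Eif4e1b, listed at 0 in 15 libraries and at 0.0656 RPKM in 1.

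The RNA came from dispersed islet cells of adult mice with floxed Grp78 alleles (Grp78 flox/flox), so every group, controls included, carried the floxed alleles, and the label of each of the 4 islet preparations carries a pair of numbers, so that 1 animal and a pool cannot be told apart from the labels. Each preparation was divided into 4 cultures, which received adenovirus encoding LacZ (Ad-LacZ) or Cre recombinase (Ad-Cre), either with the vehicle DMSO or with a pan JNK inhibitor (JNK-IN-8) from the start, for 72 hr in 15 mM glucose. Grp78 is the gene Hspa5, which encodes the main Hsp70 chaperone of the endoplasmic reticulum (ER), and Cre deletes it in whichever islet cells the virus enters, not in beta cells alone. The 16 libraries thus formed 4 groups of 4, called Ad-LacZ and Ad-Cre (with vehicle) or, with the inhibitor, Ad-LacZ + JNK inhibitor together with its Cre counterpart, Ad-Cre + JNK inhibitor, with replicates named F1, M1, M2 and F2 after their preparation, and values below are given in that order.

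Initiation factors bring the initiator tRNA, the small ribosomal subunit and the capped mRNA together: eIF4 proteins bind and unwind the cap region, eIF3 and eIF1 hold and steer the scanning subunit, eIF2 delivers the tRNA and is recharged by eIF2B, and eIF5, eIF5B and eIF6 act around subunit joining. Elongation factors then take over, with eEF1A bringing each aminoacyl-tRNA, eEF1B recharging eEF1A, and eEF2 moving the ribosome along by a codon. ER stress kinases such as PERK phosphorylate the alpha subunit of eIF2, which slows initiation, and beta cells are known to depend on this control because of their heavy load of proinsulin synthesis.

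Several members have near copies, which matters for how reads were assigned, and the stretches below show how alike the RNAs of a ubiquitous and a tissue-restricted form are. These are 60 aligned coding bases each from the GRCm38 reference with the GENCODE M21 annotation, 5′ to 3′, with the bases that differ within a pair in capitals.
Eef1a1, coding bases 1 to 60: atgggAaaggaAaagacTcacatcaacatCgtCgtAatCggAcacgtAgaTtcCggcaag
Eef1a2, coding bases 1 to 60: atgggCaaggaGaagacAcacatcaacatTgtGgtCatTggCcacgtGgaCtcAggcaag
Eif4a1, coding bases 37 to 96: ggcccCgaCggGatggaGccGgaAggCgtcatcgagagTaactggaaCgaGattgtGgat
Eif4a2, coding bases 43 to 102: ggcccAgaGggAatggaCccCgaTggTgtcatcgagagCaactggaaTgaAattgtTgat
In both pairs 11 of the 60 bases differed, and all 11 lay at the third position of a codon. Over the whole coding sequence the identity was 79.9% for Eef1a1 and Eef1a2 and 77.8% for Eif4a1 and Eif4a2, 86.3% for Eif2s3x and Eif2s3y, 96.2% for Eif4a3 and its copy Eif4a3l1, and 99.2% for Eif3j1 and Eif3j2. The split of reads within the last 2 of these pairs is therefore uncertain. Exons of several members named below also overlap other genes on the opposite strand (Eif2a with Serp1, Eef1b2 with Ndufs1, Eif2b4 with Snx17, Eif1ad with Banf1, Eef1akmt3 with Mettl1, Eif6 with Gm16098). Whether strand was used in counting is not given in the sources used here, so reads of these partners cannot be told apart. Some members also overlap genes on their own strand, where strand would not separate the reads. Among them are Eif4ebp3 (with AC115631.1), Eif4e3 (with Gm20696), Eef1d (with Naprt), Eef1a1 (with Gm26377) and Eif4g1 (with Snord66).

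Promoters, taken as 250 bases upstream to 50 bases downstream of each start site in RefSeq (GRCm38.p6), were matched for 48 of the 65 members and gave 60 promoters. The E-box CACGTG, the letters bound by MYC and related factors and the same on both strands, was present in 14 of the 60 (23.3%, 12 members), against 7.15% of all 32851 promoters of the same length. Those of 4 genes described below are shown, chosen with their values known, with the E-box in capitals and 20 bases on either side.
Eif4a1, chr11:69672587-69672632, minus strand: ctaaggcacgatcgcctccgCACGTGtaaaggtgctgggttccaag
Eif4g1, chr16:20672653-20672698, plus strand: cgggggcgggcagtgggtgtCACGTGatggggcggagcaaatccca
Eef2, chr10:81176568-81176613, plus strand: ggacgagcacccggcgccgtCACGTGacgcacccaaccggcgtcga
Eif3f, chr7:108934327-108934372, plus strand: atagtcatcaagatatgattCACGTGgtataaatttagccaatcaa
Letters of some elements linked to ER stress were searched too, and other such elements were not. These strings are longer than the E-box and rarer among all promoters as well. TGATGNAAT, a C/EBP-ATF composite element bound by ATF4 and CHOP, was found in 0 member promoters (0.96% of all). TGACGTCA, an ATF/CRE element, was found in 1, that of Eef2 (1.79% of all), and TGACGTGG, an unfolded protein response (UPR) element, in 1, that of Eif3a (0.68% of all). All were searched on both strands, and none of the 4 motifs contains another. These matches describe letters in a window and not binding. The 12 members with an E-box had log2 fold changes on both sides of 0 in Ad-Cre against Ad-LacZ. Above 0 were Eef2 (0.60), Eif3f (0.57), Eif4a1 (0.52), Eif5a (0.46), Eif4g1 (0.44), Eif3k (0.41), Eif4h (0.36) and Eef1aknmt (0.25). Below 0 were Eif3a (-0.25), Eif4e (-0.23), Eif1b (-0.14) and Eif5a2 (-0.11). Of the members that rose, Eef1b2, Eef1a1, Eif3b, Eif3g, Eif1ad and Eif2b4 held no E-box in a matched promoter. Eef1g, Eif6 and Eef1akmt3, which also rose, had no promoter matched. Any part of the E-box in these values was not tested.

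The labels were checked first. Hspa5, the floxed gene, was higher, not lower, in the libraries labelled Ad-Cre: 438 ± 49.0 RPKM in Ad-LacZ, 1264 ± 231 in Ad-Cre, 410 ± 58.4 in Ad-LacZ + JNK inhibitor and 1415 ± 189 in Ad-Cre + JNK inhibitor (SD, n = 4 each), with no overlap between the Cre and LacZ libraries. Whole-gene RPKM cannot say which exons those reads came from. Deletion was assayed in the study by qPCR on parallel aliquots, which the paper reports as showing reduced Grp78 mRNA with Ad-Cre. The paper also reports a partial loss of GRP78 protein by immunoblot of islet cells treated in this way. The Hspa5 RPKM thus ran opposite to that qPCR, and the cause was not tested. The same qPCR covered 2 other ER chaperone genes, Grp94 (Hsp90b1) and Calr, which are UPR targets, and found both increased. By RPKM both stood higher with the Ad-Cre label, Hsp90b1 at 1821 ± 534 against 548 ± 70.6 and Calr at 820 ± 107 against 279 ± 34.8 (SD, n = 4 each), with no overlap. Every direction below is that of the libraries labelled Ad-Cre. Y-linked and X-inactivation RNA went against the sex letter in the names of preparations M2 and F2 in all 4 libraries of each, and the 4 libraries of a preparation were alike in this respect. Depth, estimated from the smallest RPKM steps, was 7700000 to 25500000 reads, the lowest in Ad-Cre + JNK inhibitor F2, the 1 library whose label names another sequencing run and lane than the other 15. The summed RPKM of 8 beta cell markers was 51200 to 83700 in Ad-LacZ and 33300 to 84100 in Ad-Cre, and that of 6 macrophage markers 77.1 to 86.2 and 78.1 to 219, with no marker of either list at 0 in all libraries. In bulk RNA, fewer cells of a type and less RNA per cell cannot be told apart.

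Member mRNAs were unequally abundant. Averaged over the 16 libraries, Eef1a1, the ubiquitous eEF1A, stood at 1067 RPKM and made up 24.6% of the summed RPKM of the 65 members. Eef2 followed at 589 RPKM (13.6%), then Eif1 (179), Eif5a (175) and Eif3c (173). The summed RPKM of the members was 3466 to 3786 in Ad-LacZ and 4600 to 4997 in Ad-Cre, and 3488 to 3819 and 4396 to 5457 in the corresponding groups with JNK inhibitor. Their share of all RPKM was 1.15 to 1.26% in Ad-LacZ, 1.37 to 1.59% in Ad-Cre, 1.2 to 1.27% in Ad-LacZ + JNK inhibitor and 1.41 to 1.58% in Ad-Cre + JNK inhibitor. Groups with and without Cre did not overlap in either measure, and Eef1a1 and Eef2 alone carried much of each sum.

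The first question was how the factors differed with Ad-Cre in the absence of inhibitor. Of the 62 tested members, 11 rose and 3 fell in Ad-Cre relative to Ad-LacZ (limma on log2(RPKM + 1), Benjamini-Hochberg adjusted p under 0.05 over the 11590 genes tested), when 7.14% of all genes tested rose and 9.40% fell. Those that rose were Eef1b2, Eef1a1, Eef1g, Eif6, Eif3g, Eif3b, Eif4a1, Eif4g1, Eif1ad, Eif2b4 and Eef1akmt3, and those that fell were Eif2a, Eif4e3 and Eif4ebp3. For each of these 14 members the 4 libraries of one group lay wholly above the 4 of the other (exact permutation test, two-sided p = 0.0286, the smallest that 4 against 4 allows), as held for 25 of the 62 members in all (20 higher, 5 lower) and for 25.0% of all genes tested. That exact test ignores the pairing of cultures by preparation. It also uses the libraries that made the calls, so it is no separate evidence for them. The median log2 fold change was 0.17 over the members and -0.00 over all genes, and 38 of the 62 members lay above 0. By the study's criteria, unadjusted p under 0.05 and a fold change above 1.5, 5 members passed, all higher (Eef1a1, Eef1b2, Eef2, Eif3g and Eif6), as did 10.3% of all genes.

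**Figure D1:**
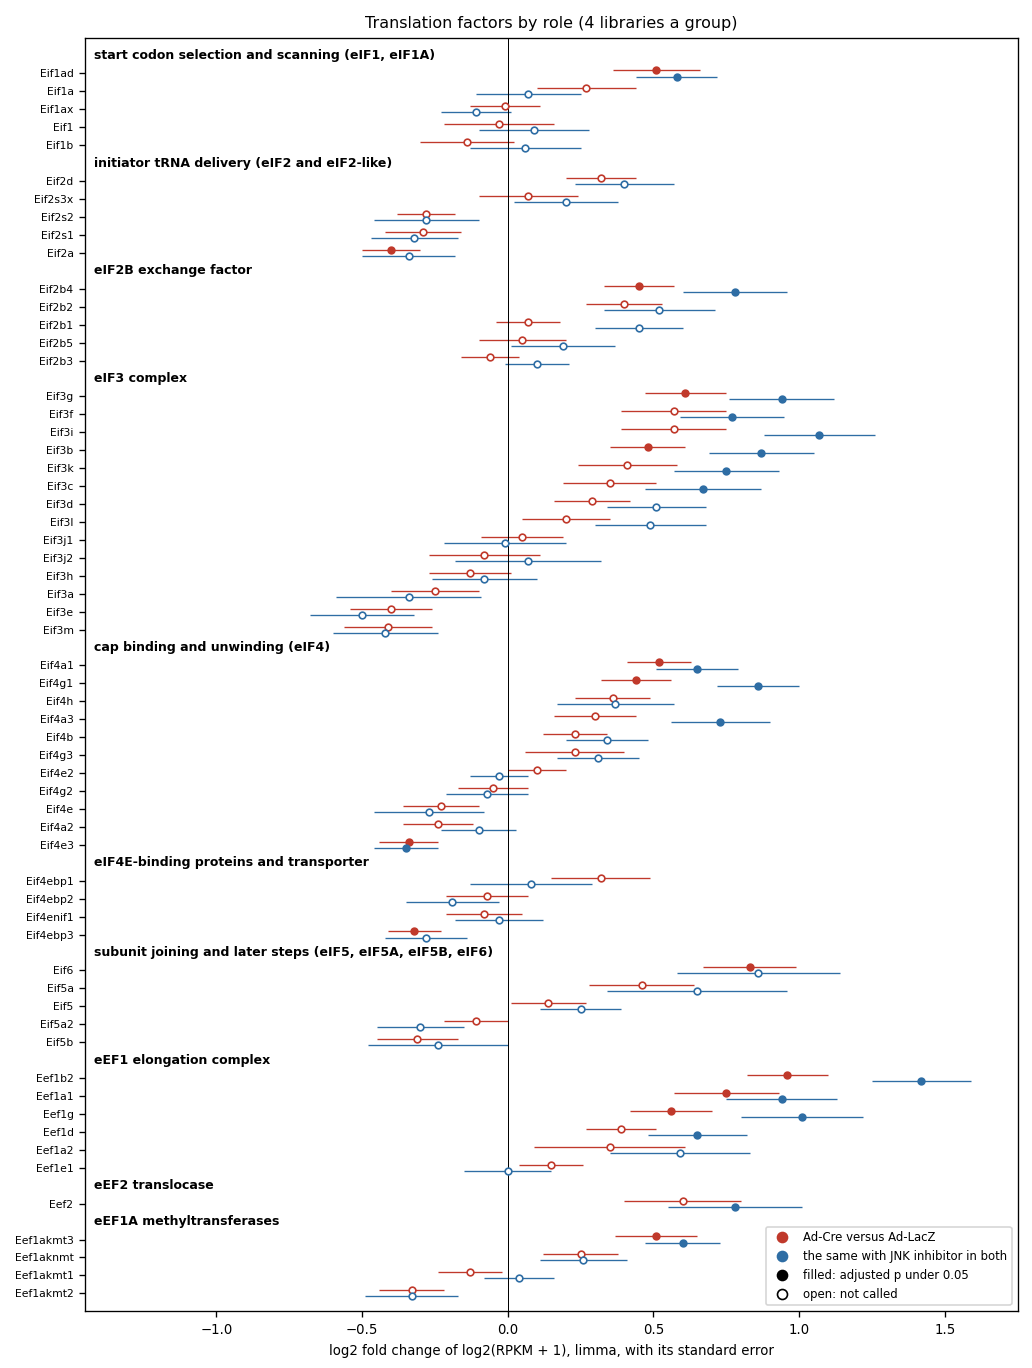
Log2 fold changes of 60 tested members (x axis, log2(RPKM + 1) scale) by role (rows; Eif2s3y and Eif4a3l1 not drawn); red, Ad-Cre against Ad-LacZ, blue, the same with JNK inhibitor in both, filled where the adjusted p was under 0.05, bars SE. Filled points lie mostly right of 0, led by Eef1b2 (0.96 and 1.42), and few lie left of it (Eif2a, Eif4e3 and Eif4ebp3).

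Elongation factors held the largest difference. Eef1b2, the eEF1B subunit that exchanges GDP for GTP on eEF1A (chr1:63176825-63180486, plus strand, GRCm38, 6 exons), read 70.9, 61.6, 68.3 and 67.0 RPKM in Ad-LacZ and 146, 105, 137 and 140 in Ad-Cre. Every Ad-Cre library exceeded every Ad-LacZ library, and the log2 fold change was 0.96 ± 0.14 (SE; limma, Benjamini-Hochberg adjusted p = 0.00464). Eef1g, the structural gamma subunit of the same complex, read 93.8, 108, 101 and 117 against 168, 135, 158 and 158 RPKM, a log2 fold change of 0.56 ± 0.14 (adjusted p = 0.0303). For Eef1a1 (chr9:78478449-78489151, minus strand) the values were 866, 826, 781 and 656 in Ad-LacZ and 1378, 1217, 1319 and 1347 in Ad-Cre. Its log2 fold change was 0.75 ± 0.18 (limma adjusted p = 0.024). After quantile normalization, which gives every library the same set of values, that fold change was 0.13 (adjusted p = 0.381). A gene then differs between libraries only by its rank within each. The call was also lost with no filter on low genes (adjusted p = 0.19). The 6 genes counted here as eEF1, by their symbols, were Eef1a1, Eef1a2, Eef1b2, Eef1d, Eef1e1 and Eef1g. Of these, 3 rose (Eef1a1, Eef1b2 and Eef1g) and none fell, beside 7.14% and 9.40% of all genes tested. The median over the 6 was 0.47. With the preparation as a block 5 of the 6 rose, when 15.8% of all genes did. The additions were Eef1d (0.39, limma adjusted p = 0.0243, or 0.0618 without the block) and Eef1a2.

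Among the others of the elongation machinery, Eef2, the translocase, read 502, 516, 469 and 349 RPKM in Ad-LacZ and 758, 664, 658 and 668 in Ad-Cre. These groups did not overlap either, but the log2 fold change of 0.60 ± 0.20 missed the threshold (adjusted p = 0.0706), reached it with the preparation as a block (adjusted p = 0.0115), and was 0.06 after quantile normalization. Eef1a2, the eEF1A of muscle and neurons (chr2:181147653-181157014, minus strand), varied more between preparations than between groups: 21.4, 14.3, 22.8 and 10.36 RPKM against 26.8, 16.7, 27.0 and 16.6. It was higher with Ad-Cre in 4 of 4 preparations while the groups overlapped, with a log2 fold change of 0.35 ± 0.26 (adjusted p = 0.397, or 0.0279 with the preparation as a block). Of the 4 eEF1A lysine and N-terminal methyltransferases, Eef1akmt3 rose, at 1.27, 1.01, 1.52 and 1.81 against 2.27, 1.88, 2.26 and 3.32 RPKM (0.51 ± 0.14, adjusted p = 0.0392), and the others did not pass.

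**Figure D2:**
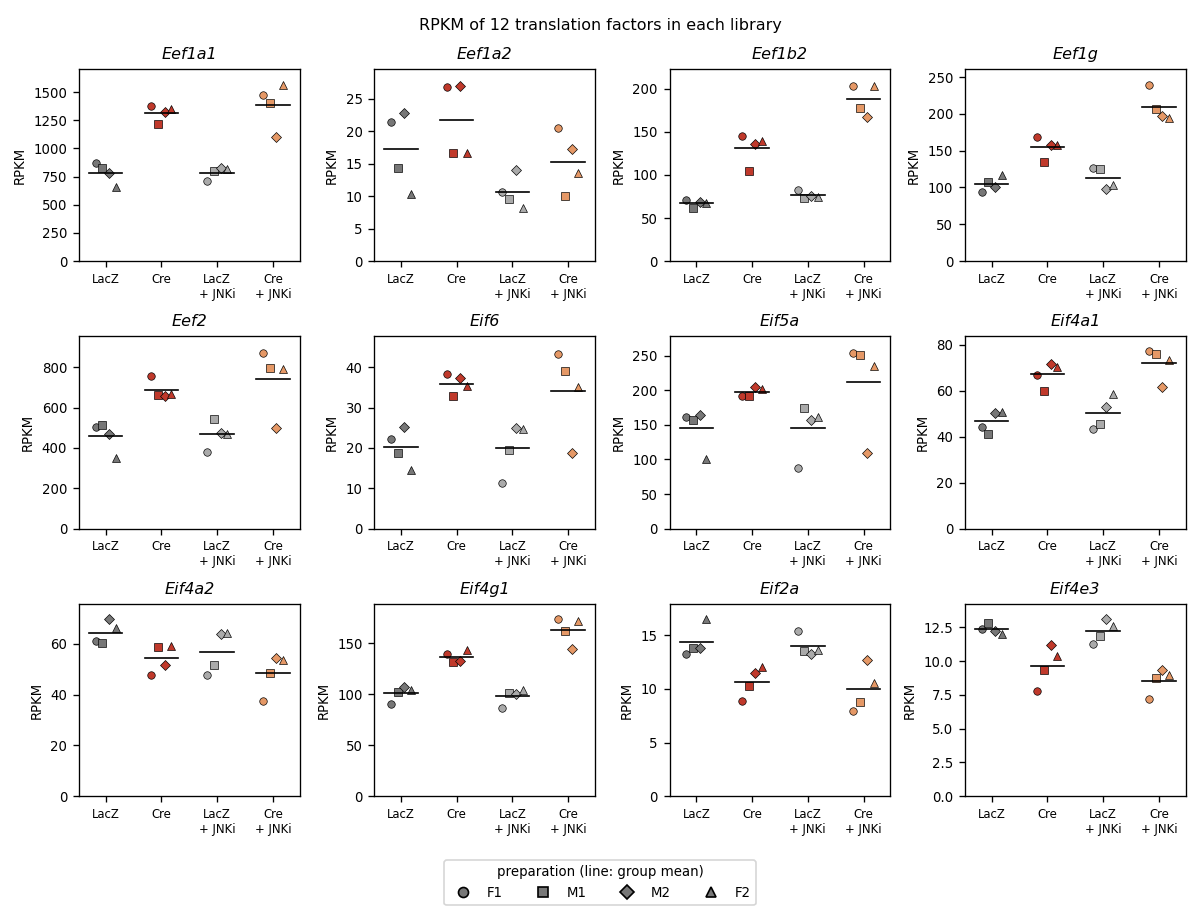
RPKM of 12 members in each library (points, by preparation) for the 4 groups, with the group mean as a line and RPKM on each y axis. In Eef1b2, Eef1a1 and Eif4g1 all Cre libraries lie above all LacZ libraries with and without JNK inhibitor, and in Eif6 and Eif5a Ad-Cre + JNK inhibitor M2 (18.8 and 109 RPKM) lies among the LacZ libraries.

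The eIF3 complex is the largest initiation factor and coats the small subunit. Only Eif3g (41.6, 46.7, 46.0 and 49.9 against 76.4, 68.7, 63.6 and 74.6 RPKM; log2 fold change 0.61 ± 0.14, limma adjusted p = 0.0226) and Eif3b (0.48 ± 0.13, adjusted p = 0.0402) of the 14 genes passed the test, and the log2 fold changes ran from -0.41 to 0.61 with a median of 0.24. Both rose, as did 7.14% of all genes tested, and both encode subunits of the module that lies next to the mRNA path. At the other end, Eif3m stood at -0.41 ± 0.15 (adjusted p = 0.098) and Eif3e at -0.40 ± 0.14 (adjusted p = 0.0746), neither past the threshold (both chosen after their values were seen). Eif3e read 68.0, 68.7, 64.6 and 63.5 RPKM in Ad-LacZ and 37.0, 49.1, 66.6 and 50.8 in Ad-Cre, so that preparation M2 showed no difference. Eif3a, the scaffold subunit, was at -0.25 ± 0.15 (adjusted p = 0.266) and below its Ad-LacZ partner in 4 of 4 preparations. With the preparation as a block, 6 subunits rose (Eif3b, Eif3c, Eif3f, Eif3g, Eif3i and Eif3k) and 2 fell (Eif3e and Eif3m). Under that fit 15.8% of all genes rose and 18.1% fell. With the block and the trend on transcript GC content removed, as described further on, Eif3e was at -0.13 (adjusted p = 0.412), and the call of Eif3k was also lost (adjusted p = 0.0607).

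**Figure D3:**
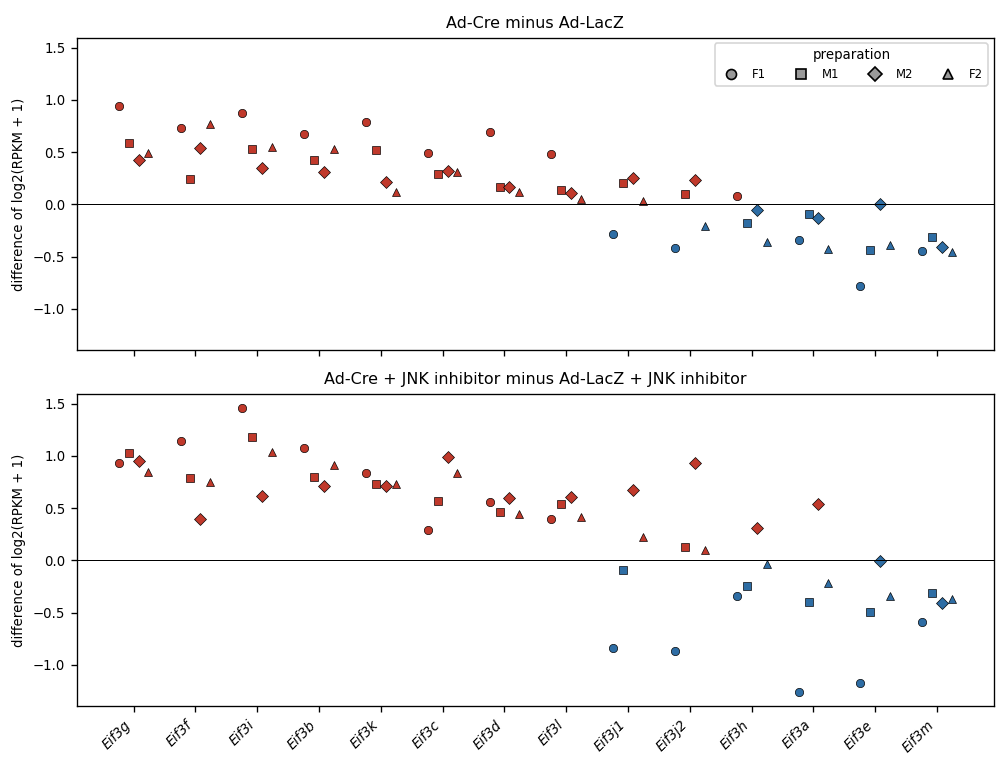
Difference of log2(RPKM + 1) within each preparation (y axis), Ad-Cre minus Ad-LacZ without and with JNK inhibitor, for the 14 eIF3 genes (x axis); each point is 1 preparation. Eif3g lies above 0 in every preparation (0.42 to 0.94 without inhibitor), Eif3m lies below 0 in all 4, and Eif3e ranges from -0.78 in F1 to 0.00 in M2.

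Among cap-binding and unwinding factors, 2 of 11 tested genes rose and 1 fell, beside 7.14% and 9.40% of all genes tested. Eif4a1, the RNA helicase of the cap complex, read 44.0, 41.2, 50.5 and 50.9 RPKM in Ad-LacZ and 66.8, 59.8, 71.7 and 70.2 in Ad-Cre, a log2 fold change of 0.52 ± 0.11 (limma adjusted p = 0.0149). Its paralog Eif4a2, shown in the sequences above, read 61.2, 60.1, 69.8 and 66.1 against 47.5, 58.7, 51.8 and 59.1, with a log2 fold change of -0.24 ± 0.12 that did not pass (adjusted p = 0.187) and exons that hold or overlap 7 other annotated genes. Eif4a1 thus lay below Eif4a2 in each Ad-LacZ library and above it in each Ad-Cre library. The scaffold Eif4g1 (chr16:20668313-20692884, plus strand, 32 exons) rose from 90.4, 102, 107 and 104 to 140, 132, 133 and 143 RPKM (0.44 ± 0.12, adjusted p = 0.0415). The cap-binding protein itself, Eif4e, did not pass at -0.23 ± 0.13 (adjusted p = 0.262), whereas its divergent relative Eif4e3 fell from 12.4, 12.8, 12.2 and 12.0 to 7.78, 9.34, 11.2 and 10.35 RPKM (-0.34 ± 0.10, adjusted p = 0.0441, a call also lost when the GC trend was removed).

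The eIF4E-binding proteins, which block the cap complex unless mTOR phosphorylates them, differed among themselves. Eif4ebp3 fell from 11.0, 12.0, 14.1 and 11.6 to 8.86, 8.85, 10.0 and 10.3 RPKM (log2 fold change -0.32 ± 0.09, limma adjusted p = 0.0339). Eif4ebp1, the form that ATF4 is known to induce in stressed beta cells, stood at 23.5, 23.0, 19.5 and 15.4 RPKM in Ad-LacZ and 26.6, 21.01, 29.1 and 24.8 in Ad-Cre, with overlapping groups and a log2 fold change of 0.32 ± 0.17 (adjusted p = 0.227). Eif4ebp2 was at -0.07 ± 0.14 (adjusted p = 0.751).

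Genes of tRNA delivery, start-site choice and subunit joining gave single calls. Eif2a, an initiator tRNA-binding protein distinct from the eIF2 trimer (chr3:58525821-58557501, plus strand), fell from 13.2, 13.8, 13.8 and 16.5 to 8.90, 10.3, 11.5 and 12.0 RPKM (-0.40 ± 0.10, limma adjusted p = 0.0329). It was the only call among 6 genes of this role, whose median was -0.16, and was lost when the GC trend described further on was removed. Eif2s1, the eIF2 alpha subunit that PERK phosphorylates, did not pass at -0.29 ± 0.13 (adjusted p = 0.162), and was at -0.03 with the GC trend removed. In eIF2B, Eif2b4 rose from 9.75, 10.3, 11.3 and 10.0 to 16.1, 13.5, 13.5 and 14.7 RPKM (0.45 ± 0.12, adjusted p = 0.0383), and the catalytic subunit Eif2b5 was at 0.05 ± 0.15 (adjusted p = 0.859). Eif6, which keeps large subunits from joining early (chr2:155819832-155826925, minus strand), read 22.1, 18.8, 25.1 and 14.5 RPKM in Ad-LacZ and 38.4, 32.8, 37.3 and 35.4 in Ad-Cre. That was the second largest rise, 0.83 ± 0.16 (adjusted p = 0.0127). Eif1ad, a nuclear eIF1A-domain protein, rose by 0.51 ± 0.15 (adjusted p = 0.0446).

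Other factors of these steps did not pass. Eif1, which guards the start codon, was at -0.03 ± 0.19 (limma adjusted p = 0.926), Eif5 at 0.14 ± 0.13 (adjusted p = 0.479), and Eif2s3x, the X-linked eIF2 gamma gene, at 0.07 ± 0.17 (adjusted p = 0.785). Eif5a, the hypusine-carrying factor that helps ribosomes through proline stretches, read 161, 158, 165 and 101 RPKM in Ad-LacZ and 192, 192, 205 and 201 in Ad-Cre. All Ad-Cre libraries lay above all Ad-LacZ libraries, but Ad-LacZ F2 stood far below its group and the log2 fold change of 0.46 ± 0.18 did not pass (adjusted p = 0.113, or 0.0336 with the preparation as a block).

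Eif2s3y is the Y-linked eIF2 gamma gene, carried by males. Across the 4 libraries of each preparation it ranged from 0 to 0.118 RPKM for F1, from 7.03 to 8.44 for M1, from 0.0104 to 0.0416 for M2, and from 9.15 to 15.2 for F2. F2, named as female, had the highest values, and M2, named as male, had none above 0.0416. The log2 fold change between Ad-Cre and Ad-LacZ, -0.04 ± 1.16, has a large standard error beside this split between preparations.

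**Figure D4:**
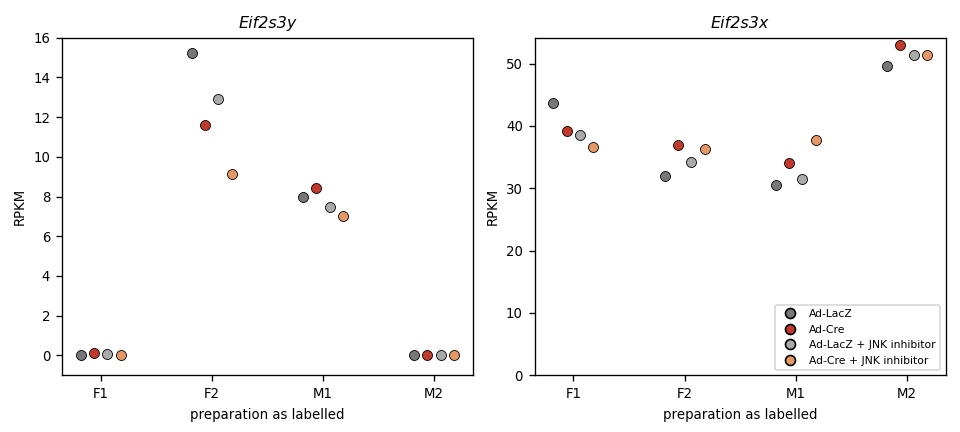
RPKM of Eif2s3y and Eif2s3x (y axes) in each library by preparation as named (x axis), 4 libraries per preparation. Eif2s3y is at 7.03 RPKM or more in M1 and F2 and at 0.118 or less in F1 and M2.

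Fitting the preparation as a block made more calls: 23 members rose, including all 11 above, and 7 fell, including all 3 above, with 15.8% of all genes rising and 18.1% falling. Fewer members were called when libraries were left out. Smaller fits have less power, and the cause of the lost calls was not tested. Leaving out preparation F1, M1, M2 or F2 left 2, 1, 6 or 0 members called, and leaving out Ad-LacZ F2 alone left 6. The split of the 14 calls, 11 higher and 3 lower, was 19 and 2 on RPKM as deposited and 11 and 6 after quantile normalization. The share of all genes called in the fits with libraries left out or other scaling is not given here, so those counts do not single out the members. Within single preparations (order as above) the median member difference was 0.18, 0.18, 0.11 and 0.12, with 39, 43, 40 and 36 of 62 members higher. Beside these differences, 1 of 8 beta cell markers fell (Ucn3, -2.10; 5 with the block, all 8 below 0, median -0.79) and 2 of 6 macrophage markers rose (C1qb, 1.11, and Ctss, 0.72; 5 with the block, all 6 above 0). The 4 tested stellate and fibroblast markers had a median of 1.05, all above 0, with 0 called (1 with the block). The part of these cells in the members' values was not tested.

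mRNAs of the translation machinery that begin with a 5′ terminal oligopyrimidine (TOP) tract are controlled together by mTOR at the level of translation. Of 11 members listed as such, 3 rose in Ad-Cre against Ad-LacZ (Eef1a1, Eef1b2 and Eef1g) and none fell, with a median of 0.39. Of all genes tested, 7.14% rose and 9.40% fell. With the preparation as a block 7 of the 11 rose and 1, Eif3e, fell (15.8% and 18.1% of all genes). The range went from -0.40 for Eif3e to 0.96 for Eef1b2.

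Other genes of the pathway outside the members numbered 52, all tested. Of these 6 rose and 3 fell in Ad-Cre against Ad-LacZ, beside the 7.14% and 9.40% of all genes, with a median of 0.00, and with the preparation as a block 10 rose and 8 fell (15.8% and 18.1% of all genes). Regulators of the factors stood out in size: Ppp1r15a (GADD34), which recruits the phosphatase that restores eIF2, rose from 19.2 ± 1.26 to 51.8 ± 14.4 RPKM (SD, n = 4; log2 fold change 1.34 ± 0.15, limma adjusted p = 0.00141). Eef2k, the kinase that inhibits eEF2, rose from 1.93 ± 0.228 to 4.24 ± 0.483 RPKM (0.83 ± 0.10, adjusted p = 0.00234), and Eif2ak3 (PERK) from 16.8 ± 1.54 to 25.9 ± 3.24 (0.59 ± 0.11, adjusted p = 0.00927). Pabpc4, a poly(A)-binding protein (0.59), and the mitochondrial elongation factors Tufm (0.48) and Tsfm (0.43) also rose, while the release factors Gspt2 (-0.60) and Gspt1 (-0.43) and the RNA-sensing eIF2 kinase Eif2ak2 (-0.35) fell. With the GC trend removed the calls of Gspt1 (limma adjusted p = 0.0741) and Eif2ak2 (adjusted p = 0.124) were lost.

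Fold change moved with the GC content of the transcript. Over the 62 members Spearman's rho between GC content and the log2 fold change of Ad-Cre against Ad-LacZ was 0.58, and over all 11590 genes 0.37, where genes share the same 8 libraries and are not replicates. The 20 members with under 45% GC had a median of -0.17 with 5 above 0, and the 9 members over 55% GC had a median of 0.45 with 9 above 0, when all genes in those bins had medians of -0.22 and 0.13. The 11 members that rose spanned 46.2 to 57.9% GC (median 52.0%), and those that fell 43.6 to 53.5%. Libraries differed in this respect within groups: the correlation of a library's deviations with GC content was -0.13, -0.13, -0.15 and -0.42 in Ad-LacZ, 0.47, 0.17, 0.09 and 0.10 in Ad-Cre, -0.47, -0.09, -0.12 and -0.16 in Ad-LacZ + JNK inhibitor, and 0.48, 0.29, -0.27 and 0.20 in Ad-Cre + JNK inhibitor. With each library's trend on GC content removed, a setting added after seeing the data, 15 members rose, including all 11 above (8.41% of all genes rose). Under it only Eif4ebp3 fell (8.14% of all genes fell), and the calls of Eif2a and Eif4e3 were lost.

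**Figure D5:**
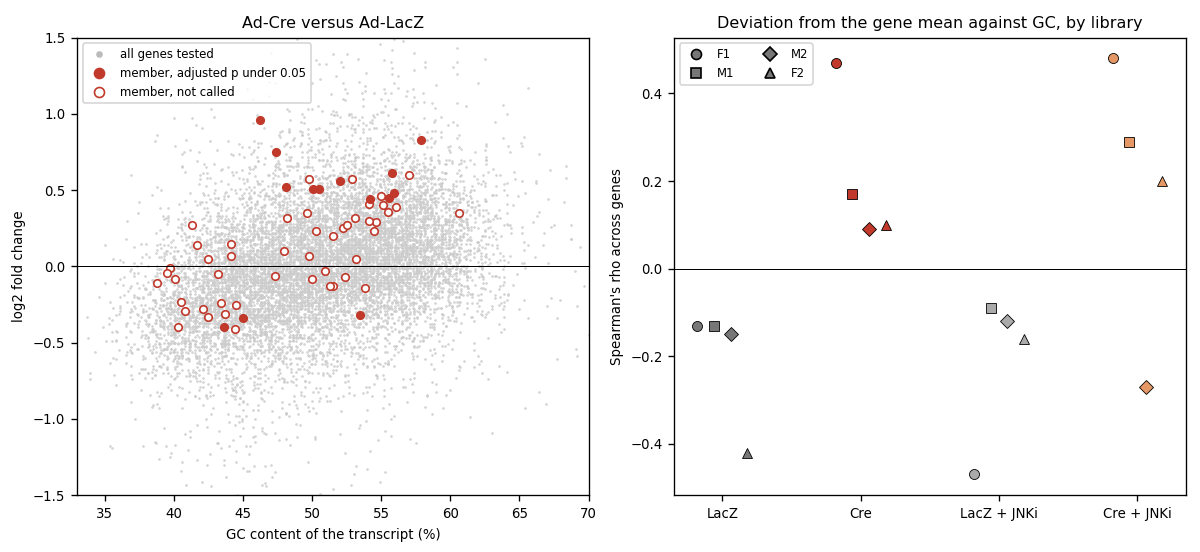
Left, log2 fold change of Ad-Cre against Ad-LacZ (y axis) against transcript GC content in percent (x axis) for the 62 tested members; right, for each of the 16 libraries, the correlation across 12274 genes of its deviation from the gene means with GC content. Members with more GC tend to lie higher (rho 0.58), and Ad-LacZ F2 (-0.42), Ad-LacZ + JNK inhibitor F1 (-0.47) and Ad-Cre + JNK inhibitor M2 (-0.27) lie lowest in their groups.

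The same contrast was then made with JNK inhibitor in both cultures. Here 17 members rose and 1 fell in Ad-Cre + JNK inhibitor against Ad-LacZ + JNK inhibitor, when 10.1% of 11598 genes rose and 10.5% fell. The libraries of this comparison are separate from those of the first, although they came from the same 4 preparations. Of the 11 members that rose without inhibitor, 10 rose here too (10 of the 17 here), the exception being Eif6, and Eef1d, Eef2, Eif3c, Eif3f, Eif3i, Eif3k and Eif4a3 were called here but not there. The median log2 fold change was 0.22, with 40 of 62 members above 0. By the study's criteria 18 members passed, all higher, with 17.8% of all genes.

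Eef1b2 again led, at 82.2, 73.3, 75.4 and 74.0 RPKM in Ad-LacZ + JNK inhibitor and 203, 178, 168 and 204 in Ad-Cre + JNK inhibitor, a log2 fold change of 1.42 ± 0.17 (limma, Benjamini-Hochberg adjusted p = 0.000926). It was called under each of the 17 other settings tried. Eef1g (127, 125, 98.6 and 104 against 239, 207, 197 and 195 RPKM) rose by 1.01 ± 0.21 (adjusted p = 0.01) and Eef1d, the second exchange subunit, by 0.65 ± 0.17 (adjusted p = 0.024). Eef1a1 rose from 710, 796, 822 and 815 to 1470, 1401, 1097 and 1564 RPKM (0.94 ± 0.19, adjusted p = 0.00909), a difference of 0.03 after quantile normalization. Eef2 read 379, 546, 473 and 471 against 874, 799, 501 and 792 RPKM (0.78 ± 0.23, adjusted p = 0.0425, and 0.05 after quantile normalization), with M2 at 501 inside the range of the LacZ libraries. In all, 4 of 6 eEF1 genes rose, beside 10.1% of all genes tested, with a median of 0.79.

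In eIF3, 6 of 14 genes rose and none fell, beside 10.1% and 10.5% of all genes tested, with a median of 0.50. Eif3i, a small propeller subunit bound to Eif3b and Eif3g, led at 18.7, 22.3, 23.4 and 22.7 against 53.6, 47.3, 30.5 and 42.8 RPKM (1.07 ± 0.19, limma adjusted p = 0.00589). Eif3g (0.94 ± 0.18, adjusted p = 0.00731) and Eif3b (0.87 ± 0.18, adjusted p = 0.0109) followed, then Eif3f (0.77), Eif3k (0.75) and Eif3c (0.67). Eif3b, Eif3f, Eif3g and Eif3i lay highest of the 14 with and without inhibitor. Eif3e (-0.50) and Eif3m (-0.42) lay lowest, and Eif3m was called only with the preparation as a block, under which 22 members rose and 1 fell (12.7% and 12.1% of all genes).

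Of the cap complex, Eif4g1 rose from 86.6, 101, 100 and 104 to 174, 162, 145 and 172 RPKM (0.86 ± 0.14, limma adjusted p = 0.00425), Eif4a3, the helicase of the exon junction complex, rose by 0.73 ± 0.17 (adjusted p = 0.0147) and Eif4a1 by 0.65 ± 0.14 (adjusted p = 0.0125). Eif4e3 was again the member that fell (-0.35 ± 0.11, adjusted p = 0.049), but its call was lost with the preparation as a block (adjusted p = 0.0698) and with the GC trend removed (adjusted p = 0.0849). Elsewhere Eif2b4 (0.78 ± 0.18, adjusted p = 0.0154), Eef1akmt3 (0.60 ± 0.13, adjusted p = 0.0124) and Eif1ad (0.58 ± 0.14, adjusted p = 0.0204) rose. Eif6 missed the threshold (0.86 ± 0.28, adjusted p = 0.0598), with values of 11.3, 19.5, 24.8 and 24.7 against 43.3, 39.0, 18.8 and 35.1 RPKM, where M2 alone went the other way. Of the other 52 translation genes 5 rose and 2 fell, beside the 10.1% and 10.5% of all genes. Among these 52 Ppp1r15a rose most, by 1.89 ± 0.16 (limma adjusted p = 0.000262). Of the 11 TOP mRNAs 6 rose, beside the 10.1% of all genes, and the median was 0.65.

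Calls with inhibitor also changed when libraries were left out. The share of all genes called is not given here for every setting. Leaving out preparation M1 or F2 left 1 member called, whereas leaving out Ad-Cre + JNK inhibitor M2 alone gave 30 calls (26 higher, 4 lower), when 17.6% of all genes rose and 17.5% fell. Without Ad-Cre + JNK inhibitor F2, the library of another run, 15 members rose and none fell. The split of 17 higher and 1 lower became 19 and 5 on RPKM as deposited, where the median of all genes shifted to -0.14, and 15 and 5 after quantile normalization. With the GC trend removed 20 members rose, 16 of them among the 17 (13.3% of all genes rose), and none fell. Cell type markers moved in the same comparison. Of 8 beta cell markers 3 fell and 0 rose (median -0.84), and with the block 5 fell and 1 rose. In the same fit 1 of 2 gamma cell markers rose (2 with the block), and 1 of 2 duct markers fell. Stellate and fibroblast markers had a median of -1.23 (0 of 5 called, 4 lower with the block), delta cell markers one of 0.85 (0 of 3 called, 2 higher with the block) and alpha cell markers one of 0.55 (0 of 5 called, 3 higher with the block). Their part in the members' values was not tested.

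Next, JNK inhibitor was compared with vehicle among Ad-Cre cultures. No member was called by limma with Benjamini-Hochberg adjustment, when 0.0174% of 11503 genes were, and 5 members had an unadjusted p under 0.05. All 5 (Eef1b2, Eef1d, Eef1g, Eif2b1 and Eif4g1) were higher with inhibitor and also exceeded the 1.2-fold change of the study's criteria for the inhibitor, which 7.81% of all genes met. The largest differences were those of Eef1b2 (0.68 ± 0.17, adjusted p = 0.287), Eef1g (0.60 ± 0.17, adjusted p = 0.365) and Eif3i (0.49 ± 0.24, adjusted p = 0.687). In Eef1b2 the Ad-Cre libraries at 146, 105, 137 and 140 RPKM all lay below the Ad-Cre + JNK inhibitor libraries at 203, 178, 168 and 204. The lowest were Eef1a2 (-0.34 ± 0.25, adjusted p = 0.827), Eif4ebp1 (-0.17 ± 0.20, adjusted p = 0.909) and the Y-linked Eif2s3y. Across the 62 members the median was 0.12 and 47 lay above 0, but the median was -0.03 on RPKM as deposited.

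With the preparation as a block, which compares each inhibitor culture with the vehicle culture of the same islets, 9 members rose with JNK inhibitor in Ad-Cre cells and none fell, when 4.66% of all genes rose. These were Eef1b2 (limma adjusted p = 0.0184), Eef1g (0.0194), Eif4g1 (0.0262), Eif3k (0.0292), Eif3i (0.0292), Eif3b (0.0308), Eif2b1 (0.031), Eef1d (0.0398) and Eif4a3 (0.0461). Markers of other islet cells moved beside them: all 5 alpha cell markers lay above 0 (median 0.55, 2 called with the block), as did all 3 delta cell markers (median 0.86, 1 called with the block), while stellate and fibroblast markers had a median of -0.68 with 0 of 5 called. Their part in the members' values was not tested.

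Without Cre, JNK inhibitor made little measurable difference. No member was called between Ad-LacZ + JNK inhibitor and Ad-LacZ (0.197% of 11657 genes were), the median was -0.01 and 29 of 62 lay above 0. A single member had an unadjusted p under 0.05, Eef1a2, at 21.4, 14.3, 22.8 and 10.36 RPKM with vehicle and 10.6, 9.56, 14.0 and 8.18 with inhibitor. It was lower with inhibitor in each preparation, by -0.61 ± 0.24 (limma adjusted p = 0.721), and was the only member to meet the study's criteria, which 4.83% of all genes met. The next lowest were Eif4a2 (-0.19) and Eif4g3 (-0.14), and the highest were Eef1b2 (0.18), Eif1ax (0.15) and Eif3j1 (0.14). Of 6 macrophage markers 3 rose in this comparison (1 with the block), with a summed level of 77.1 to 86.2 RPKM with vehicle and 151 to 330 with inhibitor. The 4 tested stellate and fibroblast markers had a median of 1.82, all above 0, with 0 called (1 higher with the block). Of 2 tested duct markers 0 were called (1 higher with the block). The summed level of the 4 listed duct markers was 132 to 284 RPKM with vehicle and 355 to 905 with inhibitor. Of 8 beta cell markers 0 were called. The part of these cells in the members' values was not tested.

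Finally, the effect of JNK inhibitor was compared between Ad-Cre and Ad-LacZ cultures as an interaction over all 16 libraries. None of the 62 members and 0% of the 12274 genes tested passed (limma, Benjamini-Hochberg adjusted), and 2 members had an unadjusted p under 0.05, Eif4g1 (0.43, unadjusted p = 0.0228, limma) and Eef1b2 (0.47, unadjusted p = 0.0394, limma), both with an adjusted p of 0.999. The median interaction was 0.11 with 45 of 62 members above 0, from Eif4ebp1 (-0.22), Eif1a (-0.19) and Eif5a2 (-0.18) up to Eef1b2 and Eef1g (0.47 each) and Eif3i (0.51). A difference in the inhibitor's effect between the 2 viruses was therefore not shown for any member.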

How the data were processed

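Poly(A) RNA from 16 islet cell cultures was sequenced. The authors deposited 1 table of RPKM values per gene on the GRCm38 build. The study's methods cite STAR for alignment to the mouse genome; its version, the annotation and how RPKM was derived from counts are not given in the sources used here. The table holds 3 further value columns that match no label, and these were not used. RPKM values are not counts, so no count model was applied. Values were scaled by trimmed mean (TMM; trims of 30% on ratios and 5% on levels), put on the log2(RPKM + 1) scale, which understates changes of low genes, and tested with limma 3.58.1 (R 4.3.3, trended eBayes) over genes above 1 RPKM in at least 4 libraries. Each comparison used its 8 libraries, and the interaction used all 16. p-values were Benjamini-Hochberg adjusted over all genes tested, with a threshold of 0.05. The study's own criteria (unadjusted p under 0.05 and a fold change above 1.5 for virus or 1.2 for inhibitor) gave a second call. Depth was estimated from the smallest RPKM steps, was 7700000 to 25500000 reads, and lay below the range the study's methods state in 4 libraries (3 with Cre). The limma fit was tested on simulated RPKM values for the comparison of Ad-Cre with Ad-LacZ.

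Cultures of one preparation share islets (the methods name 4 mice, the labels 2 numbers per preparation), and same-numbered libraries deviated together: residual correlations were 0.49 to 0.72 for Ad-Cre against Ad-LacZ, 0.65 to 0.82 and 0.13 to 0.83 for inhibitor against vehicle in Ad-Cre and Ad-LacZ, and 0.16 to 0.66 for the contrast of viruses with inhibitor, so the numbers were taken to pair the samples. The members and gene lists were chosen with earlier results of these data known. Named with values were all members called for Ad-Cre against Ad-LacZ, those called in each other comparison (otherwise the 3 highest and 3 lowest), a set list of 20 core factors, the 5 most abundant, and called genes of the other translation list. GC content came from GENCODE M21 and promoters from RefSeq (GRCm38.p6). Alternatives were the pseudocount (0.1), the filter, RPKM as deposited, quantile normalization, 1 fit of all libraries, blocking on preparation, an eBayes fit with no trend, and leaving out each preparation. GC correction (lowess, span 0.3) and leaving out single libraries that stand apart in GC content or sequencing run were added after seeing the data.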

Additional observations from a re-analysis of the deposited data

Results flagged for a closer look

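In 10 of 156 sets of 4 libraries (39 members with values in the text, in 4 groups each), 1 library lay farther from the others than Dixon's 95% limit allows, when chance gives about 1 in 20 (5%). Eif5a was low in Ad-LacZ F2, at 100.5 RPKM against 157.6 to 164.9 in the others of its group, and in Ad-Cre + JNK inhibitor M2, at 109.1 against 234.8 to 253.8. Ad-LacZ F2 also stood apart in the correlation of its deviations with GC content, -0.42 against -0.15 to -0.13 in the other Ad-LacZ libraries. Ad-Cre F1 was high for Eef2 (758.2 RPKM against 657.6 to 668.3) and for Eif3i (42.55 against 30.53 to 32.34). Ad-LacZ + JNK inhibitor F1 was high for Eif2a (15.42 against 13.28 to 13.58) and Eef1d (18.61 against 15.19 to 15.77) and low for Eif2b5 (20.03 against 21.9 to 22.21). Ad-LacZ M1 was low for Eif3k (23.88 against 26.46 to 26.62) and Eif4a3 (32.85 against 34.06 to 34.21), small gaps in tight groups. Eif2s3x was high in Ad-Cre + JNK inhibitor M2 (51.35 against 36.38 to 37.74), and M2 also had the highest Eif2s3x in each of the other 3 groups.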

How the results depend on the processing

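Counts and medians kept their direction and lay near their main value in 135 of 162 recomputed values and moved in 27. For Ad-Cre against Ad-LacZ, 14 members were called, 9 with no filter, 30 with the preparation as a block, 22 with the GC trend removed and the block, and 0 to 6 when replicates were left out (F2 gave 0). Of all 11590 genes, 1837 rose and 2099 fell with the block, and 1854 rose and 1789 fell with the GC trend also removed. The share of all genes with no filter or with replicates left out is not given here. The median of 0.17 was 0.07 after quantile normalization and 0.22 with the GC trend removed, without and with the block. For inhibitor against vehicle in Ad-Cre, 0 calls became 9 with the block and 8 with the block and the GC trend removed. Of all 11503 genes, 536 rose and 242 fell with the block, and 665 rose and 523 fell with the GC trend also removed. The median of 0.12 became -0.03 on RPKM as deposited and 0.04 after quantile normalization. In Ad-LacZ, the block with the GC trend removed gave 1 call, Eef1a2 (limma adjusted p = 0.0365), when 70 of 11657 genes rose and 21 fell. For the viruses with inhibitor, 18 calls became 1 to 30 when replicates or single libraries were left out, and the median of 0.22 was 0.09 as deposited, 0.06 after quantile normalization, 0.28 with the GC trend removed without and with the block, and 0.19 to 0.29 with replicates left out. The median interaction of 0.11 was -0.02 as deposited. The block changed no other count by over 1.5 times.

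Of the values of single members, 853 kept their direction and side of the threshold, 139 lost a call, 20 gained one and 17 changed sign, all of these 17 uncalled. For Ad-Cre against Ad-LacZ they were Eif2s3y (0.21 with a pseudocount of 0.1, 0.26 with the GC trend removed, without and with the block), Eif2s3x (-0.03 after quantile normalization, -0.01 to 0.13 with replicates left out), Eif5 (-0.01 after quantile normalization), Eif2b5 (-0.02 with the GC trend removed, without and with the block, -0.00 to 0.08 with replicates left out), Eif1 (-0.11 to 0.00 with replicates left out) and Eif4e (0.04 with the GC trend removed, without and with the block). For inhibitor in Ad-Cre they were Eif4ebp1 (-0.25 to 0.01) and Eif2s3y (-0.16 to 0.41), and in Ad-LacZ Eif4g3 (-0.31 to 0.02), all with replicates or single libraries left out. The causes were not tested. Members under about 1 RPKM could not be assessed at this depth.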
